A study of Mus musculus with 8 samples.

Results

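The receptors through which bone-forming cells sense hormones were followed in osteoblasts sorted from mice after a course of doxorubicin. The set holds 9 genes: the parathyroid hormone receptor Pth1r, the growth hormone receptor Ghr, the insulin receptor Insr, the glucocorticoid receptor Nr3c1, the estrogen receptor Esr1, the vitamin D receptor Vdr, the thyroid hormone receptors Thra and Thrb, and the retinoid X receptor Rxra. They were chosen by name, all 9 had a row among the 21154 genes of the count table, and all 9 were among the 15373 genes that passed the filter on low counts.

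Pth1r spans the membrane and couples to G proteins, chiefly through cyclic AMP. Parathyroid hormone given intermittently builds bone through it, while a sustained excess of the hormone drives bone loss. Ghr signals through the kinase JAK2 and STAT5 proteins, and Insr is itself a tyrosine kinase. The other receptors are transcription factors of the nuclear receptor family. Vdr, Thra and Thrb bind DNA mostly as pairs with a retinoid X receptor such as Rxra, whereas Nr3c1 and Esr1 act mostly as pairs of themselves. In bone, vitamin D acting on osteoblasts regulates matrix genes and the osteoclast-inducing cytokine RANKL, estrogen restrains bone loss, and glucocorticoids in excess suppress bone formation.

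All libraries came from bone of female Col2.3-GFP mice, in which a fragment of the Col1a1 promoter drives green fluorescent protein in cells that make bone matrix. At 8 to 10 weeks of age the mice were given 4 intravenous injections, 1 week apart, of doxorubicin at 5 mg/kg (DOX) or of phosphate-buffered saline (PBS), and they were killed 8 weeks after treatment. Marrow was spun out, bone chips were digested, and GFP-positive cells were sorted, so cells that lost the reporter or resisted digestion are not represented. Full-length cDNA was amplified with SMART-Seq v4 Plus. The PBS group held 3 libraries (replicate 1 in batch 1, replicates 2 and 3 in batch 2) and the DOX group held 5 (replicates 1 and 2 in batch 1, replicates 3 to 5 in batch 2). DOX replicate 1 is DOX by its title and PBS by its treatment tag. It was kept as DOX, and results are also given without it or with it as PBS where that matters.

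The libraries held between 39419027 and 44299591 counts. Osteoblast markers dominated all of them, with Col1a1 and Col1a2 together taking between 19.1% and 39.5% of counts. This share was lowest in PBS replicate 1 (19.1%) and DOX replicate 1 (23.2%), and highest in PBS replicates 2 and 3 (39.5% and 38.7%). Markers of other cells were low by comparison and differed between libraries: the summed level of 9 erythroid markers ran from 4.45 to 158 CPM in PBS and from 3.45 to 110 CPM in DOX, that of 10 adipocyte and reticular stromal markers from 125 to 775 CPM and from 152 to 488 CPM, and that of 10 endothelial markers from 6.52 to 29.6 CPM and from 6.93 to 28.8 CPM. PBS replicate 1 was the highest PBS library in these lists, which were chosen after their values were seen. The summed chondrocyte markers were far higher, at 2738 to 7183 CPM in PBS and 1951 to 5668 CPM in DOX. Most of this was Col2a1, at 2116, 6821 and 7056 CPM in PBS replicates 1 to 3. In this sum PBS replicate 1 was the lowest PBS library, as it was for muscle markers (15.2 to 31.8 CPM in PBS). It was lowest for Col2a1 and Col9a1, but highest of the PBS libraries for Acan, Sox9, Col10a1, Matn3 and Comp (564, 208 and 107 CPM). CPM are counts relative to library size, scaled by the trimmed mean of M-values (TMM). In sorted bulk RNA, fewer cells of a type and less RNA per cell cannot be told apart.

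No hormone receptor differed between DOX and PBS osteoblasts beyond the spread between libraries. EdgeR's quasi-likelihood test, with batch as a term, called 0 of the 9 receptors at an adjusted p under 0.05, against 0% of all 15373 genes tested. At an unadjusted p under 0.05 it listed 0 of the 9, against 3.71% of all genes, and limma-voom with quality weights and DESeq2 also called 0 of 9 after adjustment. The limma-voom fit listed Thrb alone at an unadjusted p under 0.05, and DESeq2 listed none. The estimates were positive for 5 receptors and negative for 4 (positive for 53% of all genes), with a median log2 fold change of 0.00 against 0.02 over all genes. In no receptor did the groups separate, whereas they did not overlap in 2.43% of all genes. The 95% interval of each receptor is given below, and that of Insr was the widest.

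**Figure D1:**
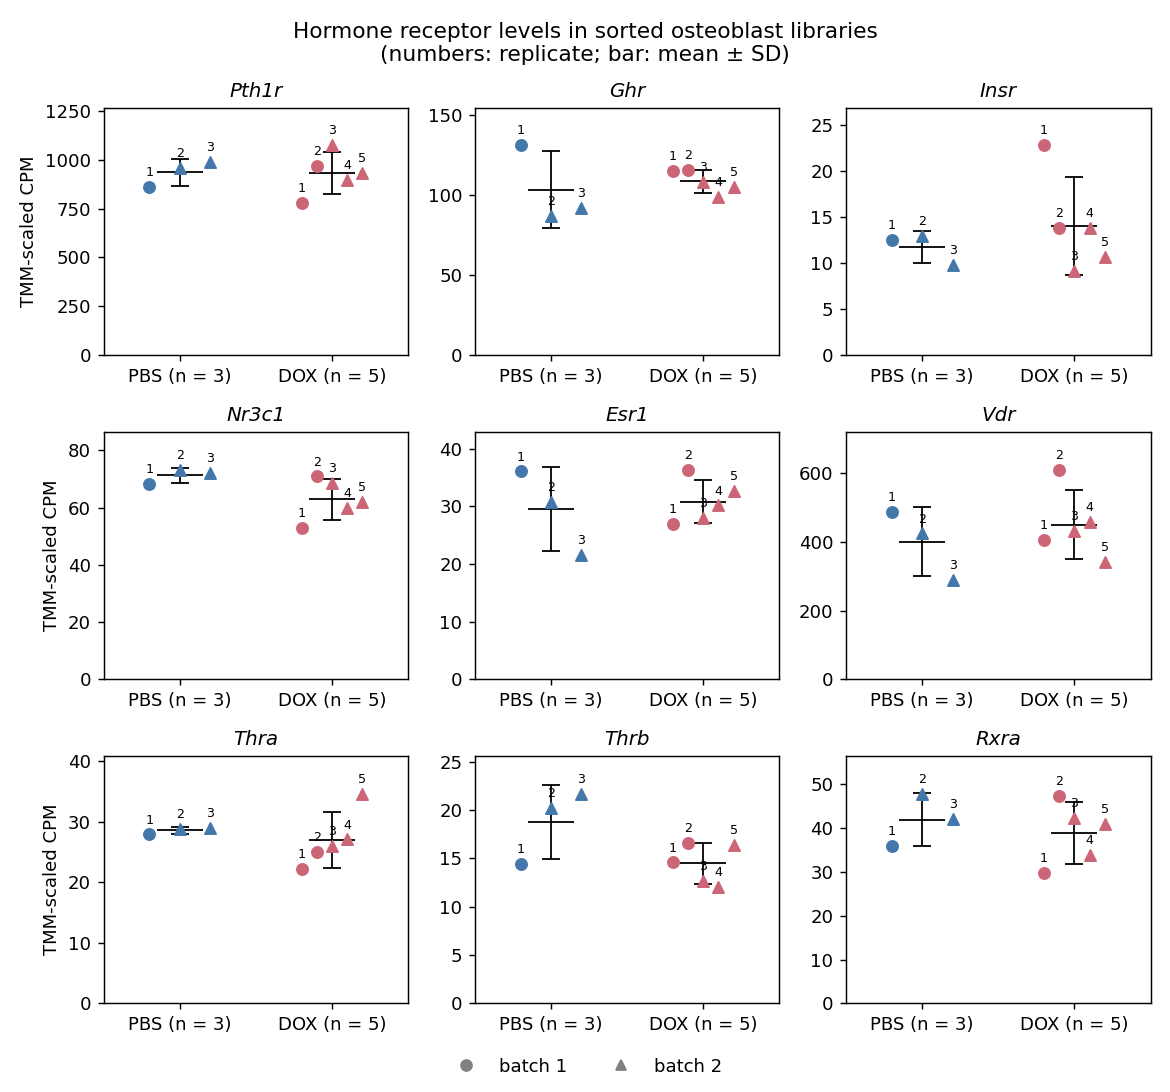
TMM-scaled CPM (vertical axes, from 0) of the 9 receptors in each library, for PBS (blue, n = 3) and DOX (red, n = 5), with circles for batch 1, triangles for batch 2, replicate numbers above the points and mean ± SD as black bars. The groups overlap in every panel; the PBS libraries of Thra lie between 27.9 and 29.0 CPM, and its DOX libraries between 22.2 and 34.6 CPM.

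Per length of exon, Pth1r was by far the most abundant of the receptors. Its mean over the 8 libraries was 319 CPM per kb of merged exon, followed by Vdr at 76.3, Ghr at 11.8, Nr3c1 at 8.59, Rxra at 7.32, Thra at 5.97, Esr1 at 2.22, Thrb at 2.17 and Insr at 0.960. The range over libraries of Pth1r (266 to 367) lay wholly above that of Vdr (51.2 to 108), and that of Vdr above that of Ghr (9.61 to 14.5). Ghr also lay above Nr3c1 in all libraries, by the narrow margin between 9.61 and 9.54. Among the lower receptors, the ranges of Nr3c1 and Rxra, Rxra and Thra, Esr1 and Thrb, and Thrb and Insr overlapped. Compared within each library, Nr3c1 still lay above Rxra, and Thrb above Insr, in all libraries. The order of Rxra and Thra, and that of Esr1 and Thrb, was not the same in all libraries. Among all genes tested, counts without regard to length put Pth1r at the 99.6th percentile and Vdr at the 98.8th, and Insr, the lowest, at the 57.3rd.

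The stretches of 250 bases before the start of Pth1r, Vdr and Rxra are shown because Pth1r and Vdr are the most abundant receptors and Rxra is the dimer partner of Vdr. They are RefSeq sequences of GRCm38.p6, written 5′ to 3′ on the strand of the gene, with capitals for a GC box (GGGCGG or its complement) or a CCAAT box (CCAAT or its complement). RefSeq lists 3 starts for Pth1r, of which the upstream pair is shown (chr9:110747146-110747395 and chr9:110743687-110743936, minus strand), 1 for Vdr (chr15:97908297-97908546, minus strand) and 2 for Rxra, of which the first is shown (chr2:27676951-27677200, plus strand).
Pth1r, start 1: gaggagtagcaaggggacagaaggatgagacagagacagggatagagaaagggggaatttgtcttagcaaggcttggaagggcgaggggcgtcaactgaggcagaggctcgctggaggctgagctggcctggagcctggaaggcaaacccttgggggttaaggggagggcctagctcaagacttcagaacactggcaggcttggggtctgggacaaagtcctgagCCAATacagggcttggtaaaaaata
Pth1r, start 2: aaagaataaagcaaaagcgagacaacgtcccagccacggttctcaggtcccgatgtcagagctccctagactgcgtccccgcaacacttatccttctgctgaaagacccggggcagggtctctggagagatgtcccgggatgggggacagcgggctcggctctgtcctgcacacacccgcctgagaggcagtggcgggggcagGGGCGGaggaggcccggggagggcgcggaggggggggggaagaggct
Vdr: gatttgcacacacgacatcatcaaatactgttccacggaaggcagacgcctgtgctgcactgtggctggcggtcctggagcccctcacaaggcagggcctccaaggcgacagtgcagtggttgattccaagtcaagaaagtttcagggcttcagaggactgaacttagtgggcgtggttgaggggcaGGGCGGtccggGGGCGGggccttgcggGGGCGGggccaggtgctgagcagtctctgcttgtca
Rxra, start 1: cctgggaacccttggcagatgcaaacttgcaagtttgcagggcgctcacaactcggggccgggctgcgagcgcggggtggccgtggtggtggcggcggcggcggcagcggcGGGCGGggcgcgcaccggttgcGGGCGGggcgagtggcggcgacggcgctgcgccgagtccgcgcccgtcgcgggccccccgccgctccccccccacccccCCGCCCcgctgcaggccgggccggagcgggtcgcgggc

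The first window of Pth1r has 1 CCAAT box and no GC box, and the second has 1 GC box. The third, not printed because 109 of its bases are exon, has 4 GC boxes and a GC content of 70.4%. Vdr and the first window of Rxra have 3 GC boxes each, and the second window of Rxra, not printed, has none. A GC box was found in 32.7% and a CCAAT box in 33.8% of all 32851 promoter windows of the same length, searched on both strands. The GC content of the windows was 56.0% and 65.6% for Pth1r, 61.2% for Vdr and 81.2% for Rxra, the last at the 99.3rd percentile of all windows. The letters AGGTCA, a core recognised by many nuclear receptors, were found in none of the 4 printed windows, at 2 places in the second window of Rxra, and in 14.0% of all windows. Of the Vdr window, 14 bases are annotated as exon of Vdr. The counts are summed per gene and do not tell which start was used.

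Among the membrane receptors, Pth1r was the steadiest. It stood at 859, 959 and 990 CPM in PBS replicates 1 to 3 and at 779, 970, 1074, 897 and 933 CPM in DOX replicates 1 to 5. The lowest level was in DOX replicate 1 and the highest in DOX replicate 3, both outside the PBS range, and the remaining DOX libraries lay within it. The log2 fold change was 0.00 ± 0.13 (SE), and the 95% interval in fold terms ran from 0.819 to 1.23 (edgeR, adjusted p = 1.00). Its standard deviation over the 8 libraries was 0.14 on the log2 scale, at the 7.1th percentile of all genes tested. A stretch of 95 exon bases, 3.25% of the exons of Pth1r, overlaps the muscle gene Myl3 on the other strand, which stood at 0.708 to 3.52 CPM. Its part in the counts of Pth1r was not tested.

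The growth hormone receptor Ghr was highest in a PBS library. It stood at 131, 87.0 and 92.2 CPM in PBS replicates 1 to 3 and at 115, 116, 108, 99.1 and 105 CPM in DOX replicates 1 to 5. All 5 DOX libraries lay between PBS replicate 3 and PBS replicate 1. DOX over PBS gave a log2 fold change of 0.07 ± 0.12 (SE), with a 95% interval in fold terms of 0.873 to 1.26 (edgeR, adjusted p = 0.995). Libraries of batch 1 had more Ghr than those of batch 2, with a log2 difference of -0.30 ± 0.12 (SE) for batch 2 over batch 1 at an unadjusted p of 0.0305 in edgeR, which did not pass adjustment (adjusted p = 0.299). The batch term passed in 0 of the 9 receptors and in 0.0911% of all genes. At an unadjusted p under 0.05 it listed 2 of the 9, against 14.6% of all genes. The other was Insr, with -0.51 ± 0.22 (SE).

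Insr, whose product carries the insulin signal into the cell, had the largest spread of the 9 receptors. It stood at 12.5, 12.95 and 9.83 CPM in PBS replicates 1 to 3 and at 22.8, 13.8, 9.18, 13.8 and 10.6 CPM in DOX replicates 1 to 5. The library with the disputed label, DOX replicate 1, was the highest by a wide margin, and DOX replicate 3 was the lowest. For Insr the log2 fold change was 0.18 ± 0.23 (SE), with a 95% interval in fold terms of 0.796 to 1.61 (edgeR, adjusted p = 0.995). Without DOX replicate 1 it was 0.03, and with that library counted as PBS it was -0.14. Without PBS replicate 1 it was -0.01.

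The steroid receptors differed in how alike the PBS libraries were. Nr3c1 stood at 68.3, 73.3 and 72.2 CPM in PBS replicates 1 to 3 and at 52.9, 70.9, 68.7, 60.0 and 61.9 CPM in DOX replicates 1 to 5. Of the DOX libraries, 3 (replicates 1, 4 and 5) lay below every PBS library and none above the PBS range. The log2 fold change was -0.18 ± 0.12 (SE), with a 95% interval in fold terms of 0.730 to 1.07 (edgeR, adjusted p = 0.995). Nr3c1 was the receptor whose sign held under every one of 21 other settings, from -0.25 without DOX replicate 2 to -0.05 with DOX replicate 1 counted as PBS. In none of these settings did it pass adjustment, the smallest adjusted p being 0.451 in edgeR (unadjusted p = 0.0356), without DOX replicate 2.

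Esr1 varied as much within the PBS group as between any libraries. It stood at 36.04, 30.7 and 21.6 CPM in PBS replicates 1 to 3 and at 27.0, 36.4, 28.0, 30.1 and 32.7 CPM in DOX replicates 1 to 5. The lowest library was PBS replicate 3, and the highest, DOX replicate 2, was level with PBS replicate 1. Its log2 fold change was 0.06 ± 0.16 (SE), with a 95% interval in fold terms of 0.810 to 1.35 (edgeR, adjusted p = 0.995). Without PBS replicate 3 its sign turned (-0.10).

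The vitamin D receptor Vdr spanned a 2.11-fold range over the libraries, against 1.38-fold for Pth1r. It stood at 487, 425 and 289 CPM in PBS replicates 1 to 3 and at 406, 611, 432, 458 and 341 CPM in DOX replicates 1 to 5. DOX replicate 2 was the highest library, PBS replicate 3 was the lowest, and the other DOX libraries lay within the PBS range. The log2 fold change was 0.15 ± 0.19 (SE), with a 95% interval in fold terms of 0.834 to 1.48 (edgeR, adjusted p = 0.995). Without PBS replicate 3 the log2 fold change was -0.000555, close to 0.

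The thyroid hormone receptors are close relatives, and Thra is the form usually dominant in bone. One product of Thra, formed by alternative splicing, does not bind the hormone, and counts per gene do not separate it. Thra stood at 27.9, 28.7 and 29.0 CPM in PBS replicates 1 to 3 and at 22.2, 25.1, 26.05, 27.1 and 34.6 CPM in DOX replicates 1 to 5. The PBS libraries lay within 1.11 CPM of each other, with 4 DOX libraries below all of them and DOX replicate 5 above all of them. The log2 fold change was -0.07 ± 0.14 (SE), with a 95% interval of -0.38 to 0.23 on the log2 scale (edgeR, adjusted p = 0.995). The 3' end of Thra overlaps Nr1d1, a circadian repressor on the other strand, over 263 exon bases (5.70% of the exons of Thra), and the cDNA method does not mark the strand. Nr1d1 ranged from 29.7 to 39.6 CPM under PBS and from 17.8 to 42.8 CPM under DOX, and its part in the counts of Thra was not tested.

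Thrb had the largest estimate of the 9 receptors in size. Its groups did not overlap within batch 2, which also held for Ghr and Nr3c1. That batch has only 2 PBS and 3 DOX libraries, and the share of all genes that separated there was not counted. The separation therefore cannot be read as a trait of these receptors. Thrb stood at 14.4, 20.2 and 21.7 CPM in PBS replicates 1 to 3 and at 14.6, 16.6, 12.7, 12.03 and 16.4 CPM in DOX replicates 1 to 5. PBS replicates 2 and 3 lay above all 5 DOX libraries, and PBS replicate 1 lay among them. The log2 fold change was -0.36 ± 0.18 (SE), with a 95% interval in fold terms of 0.588 to 1.03 (edgeR, unadjusted p = 0.0736, adjusted p = 0.995). Without PBS replicate 1 it was -0.60 ± 0.18 (unadjusted p = 0.00794, adjusted p = 0.701 in edgeR), and in batch 2 alone -0.61 ± 0.17 (unadjusted p = 0.00544, adjusted p = 0.319). These are not separate results: without PBS replicate 1, batch 1 holds DOX libraries only, and with batch as a term the difference rests on batch 2. None of these values passed adjustment. In batch 1, with a single PBS library, the difference of means was 0.11 on the log2 CPM scale.

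Rxra, the dimer partner, was similar in both groups. It stood at 35.8, 47.8 and 42.1 CPM in PBS replicates 1 to 3 and at 29.7, 47.3, 42.3, 33.9 and 40.8 CPM in DOX replicates 1 to 5. DOX replicates 1 and 4 lay below every PBS library, and no DOX library lay above PBS replicate 2. Between the groups the log2 fold change was -0.10 ± 0.17 (SE), with a 95% interval in fold terms of 0.722 to 1.21 (edgeR, adjusted p = 0.995).

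**Figure D2:**
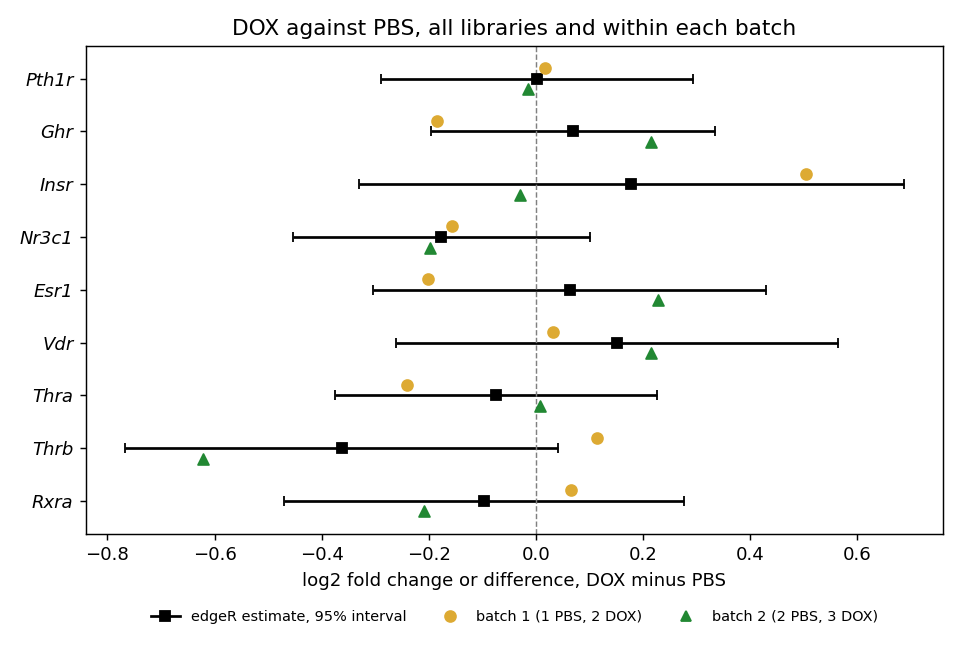
Log2 fold change of DOX over PBS (horizontal axis) for each receptor: black squares are edgeR estimates over all 8 libraries with 95% intervals, yellow circles the difference of mean log2 CPM in batch 1 and green triangles that in batch 2. All 9 intervals cross 0, and for Thrb batch 1 (0.11) and batch 2 (-0.62) lie on opposite sides of it.

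Set apart by batch, most receptors had differences of opposite sign. The sign differed between batches for 7 of the 9, the exceptions being Nr3c1 (-0.16 in batch 1 and -0.20 in batch 2) and Vdr (0.03 and 0.22), and it differed for 56.9% of all genes. Esr1 (-0.20 and 0.23) and Ghr (-0.18 and 0.22) were lower in DOX in batch 1 and higher in batch 2, whereas Insr (0.50 and -0.03), Thrb (0.11 and -0.62) and Rxra (0.07 and -0.21) had the reverse order. For Pth1r (0.02 and -0.01) and Thra (-0.24 and 0.01) at least 1 of the values was near 0. Batch 1 has 1 PBS library, the one with the lowest collagen share. That library was the highest of the PBS group for 3 receptors (Vdr, Esr1 and Ghr), against 42% of all genes, and the highest of all 8 for Ghr alone, against 18.4% of all genes. The test of the difference itself, the batch-by-treatment term in edgeR, called 0 of 9 receptors, against 0% of all genes, with a smallest adjusted p of 0.406 for Thrb (unadjusted p = 0.0413). At an unadjusted p under 0.05 it listed 1 of 9, against 11.7% of all genes.

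With TMM scaling, Rxra and Nr3c1 were related to the collagen share of the libraries by rank, and no relation passed adjustment by Pearson's r. Over the 8 libraries, Rxra was higher where the share of Col1a1 and Col1a2 in the counts was higher (Pearson r = 0.82, exact permutation p = 0.0145, adjusted over 9 relations 0.117; Spearman rho = 0.86, exact permutation p = 0.0107, adjusted 0.0482). Nr3c1 passed adjustment by rank as well (r = 0.67, exact permutation p = 0.0657, adjusted 0.148; rho = 0.86, p = 0.0107, adjusted 0.0482). Pth1r had r = 0.74 (exact permutation p = 0.0300, adjusted 0.117) and rho = 0.76 (p = 0.0368, adjusted 0.1103), and Thrb had r = 0.66 (p = 0.0822, adjusted 0.148) and rho = 0.71 (p = 0.0576, adjusted 0.130). The opposite sign was found for Ghr, with r = -0.74 (exact permutation p = 0.0389, adjusted 0.117) and rho = -0.67 (p = 0.0831, adjusted 0.150).

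Leaving out the libraries farthest from the median share, PBS replicates 1 and 2, gave r = 0.85 for Rxra, 0.97 for Nr3c1, 0.80 for Pth1r and 0.61 for Thrb. For Ghr it gave -0.35, so that this relation rests on those libraries. For Vdr, Esr1, Thra and Insr, r lay between -0.44 and 0.16 with adjusted p between 0.428 and 0.715 (exact permutation). These relations depend on the scaling. With plain CPM, relative to all counts with collagen included, r became -0.87 for Pth1r, -0.74 for Nr3c1, -0.32 for Rxra and -0.20 for Thrb, and 5 of 9 relations, all negative, passed adjustment. A high collagen share lowers every other gene on that scale by construction: r was above 0 for 12.4% of all genes there and for 48% with TMM. With TMM, 10.5% of all genes had a rho at least as large in size as those of Rxra and Nr3c1. The batches hold 3 and 5 libraries, too few for a relation within each. The permutations shuffled all 8 libraries without regard to group or batch. The highest shares were those of PBS replicates 2 and 3, both of batch 2, so group and batch are mixed into these relations.

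**Figure D3:**
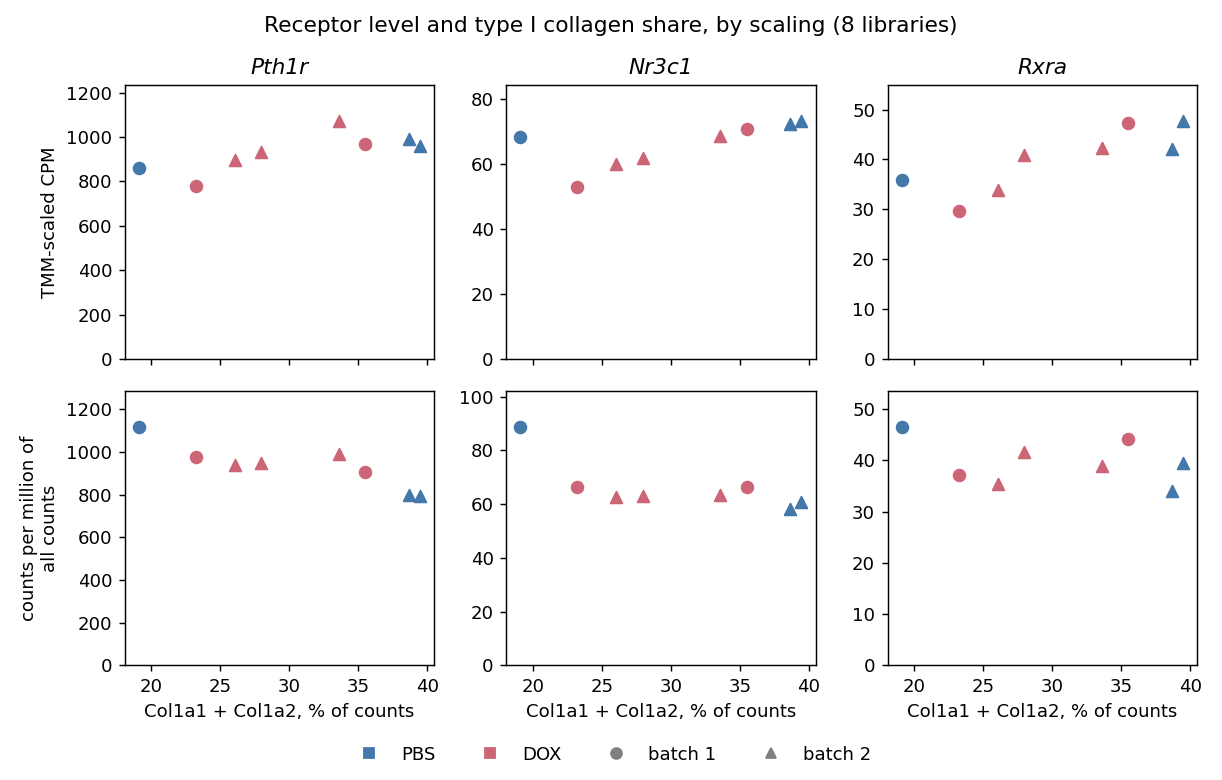
Level of Pth1r, Nr3c1 and Rxra (vertical axes, from 0) against the share of counts of Col1a1 and Col1a2 in percent (horizontal axis) in the 8 libraries (PBS blue, DOX red, circles batch 1, triangles batch 2), with TMM-scaled CPM in the upper row and plain CPM, relative to all counts, in the lower row. The upward trends of the upper row (r = 0.74, 0.67 and 0.82) become downward below (r = -0.87, -0.74 and -0.32).

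Among themselves, Nr3c1, Rxra and Pth1r had similar patterns across libraries. Nr3c1 and Rxra had r = 0.87 over the 8 libraries, Pth1r and Rxra 0.81, and Pth1r and Nr3c1 0.75, all on log2 CPM. Vdr and Esr1 had r = 0.77 with each other, and both were near 0 with Pth1r (-0.08 and -0.15). Insr ran against Pth1r (r = -0.85), Nr3c1 (-0.69) and Thra (-0.67). Vdr and its dimer partner Rxra had r = 0.09. All of these values share the same 8 libraries and their composition, and they are descriptions.

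Genes most alike in pattern were sought among 3505 genes by the Pearson correlation of log2 CPM over the 8 libraries. They were the dynactin gene Actr1a (r = 0.97), Stau1 and Gpr107 for Pth1r, Gmfb (0.92), Rb1cc1 and Nedd9 for Vdr, and the matrix gene Spon1 (0.98), Col6a2, a chain of type VI collagen, and Ecd for Esr1. For Nr3c1 they were the non-muscle myosin gene Myh9 (0.99) and Rbm15b, for Rxra Galnt10 (0.99), Lrrc41 and Smim13, and for Thra Ramac (0.95), Olfml3 and Prcp. For Thrb they were Scaf11 (0.95), Ranbp9 and Pip4k2a, for Ghr Nop56 (0.91), Dnttip2 and Resf1, and for Insr Raph1 (0.97), Zfp68 and Nktr. With so many candidates and 8 libraries, high values are found for any gene, and these names are a description.

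Genes that act with the receptors showed no difference that passed the test over all 8 libraries either. In 9 lists of hormone metabolism, signalling, targets and cofactors, 191 of 230 genes were tested and edgeR called 0. At an unadjusted p under 0.05 it listed 8, which is 4.19%, against 3.71% of all genes. All 5 DOX libraries lay below every PBS library for 5 of the 191 genes and above for 0, which is 2.62% together, against 2.43% of all genes. Those 5, all with an adjusted p of 0.995 in edgeR, were Sik2, Stat5a, Ptpn11, Hr and Ncor1, of which Ptpn11 and Ncor1 are named because of these values.

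In the list of parathyroid hormone and cyclic AMP signalling, 14 of 35 tested genes had positive and 21 negative estimates (median -0.04). Sik2, a kinase that parathyroid hormone signalling inhibits, had the smallest p. Its mean level was 9.53 ± 0.917 CPM (SD, n = 3) under PBS against 6.79 ± 0.616 CPM (SD, n = 5) under DOX and a log2 fold change of -0.50 ± 0.16 (SE; edgeR, unadjusted p = 0.0107), and its difference was -0.50 in both batches. Adcy3, an adenylyl cyclase, had -0.41 ± 0.16 and Rgs2, a brake on G protein signalling that the hormone induces, 0.41 ± 0.18. With DOX replicate 1 counted as PBS, Rgs2 had 0.12. With plain library totals 21 of the 35 estimates were positive, and in batch 1 alone 25 (median 0.18).

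In the vitamin D list 3 of 12 tested genes had positive and 9 negative estimates (median -0.14). In the order of p it was led by Lrp5 (-0.31 ± 0.20), Cyp27b1 (-1.02 ± 0.72), which activates the vitamin, and the pyrophosphate transporter gene Ank (-0.44 ± 0.32). Lrp5 (0.12 in batch 1 and -0.56 in batch 2) and Cyp27b1 (0.84 and -1.70) differed in sign between batches. Ank had -1.30 in batch 1 and -0.03 in batch 2. Cyp27b1 was also low, with means of 1.01 CPM under PBS and 0.734 CPM under DOX. Without PBS replicate 1 the median of this list turned to 0.06.

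The glucocorticoid list had 16 of 25 tested genes with positive estimates (median 0.11, and -0.13 in batch 1 alone), with Sesn1 at 0.28 ± 0.10 (SE), the clock gene Per1 at 0.50 ± 0.20 (0.28 with DOX replicate 1 counted as PBS) and the chaperone gene Hspa8 at 0.31 ± 0.15. The mean level of Per1 was 8.98 ± 1.53 CPM (SD, n = 3) under PBS against 12.7 ± 2.13 CPM (SD, n = 5) under DOX, and every DOX library but replicate 4 exceeded the highest PBS value. Widely used reporters of glucocorticoid action, chosen after their values were seen, were uneven between libraries: PBS replicates 1 to 3 had 224, 71.2 and 58.2 CPM of Tsc22d3, and 16.8, 3.95 and 3.85 CPM of Fkbp5. Their log2 fold changes were 0.22 ± 0.26 and -0.44 ± 0.25. Hsd11b1, which regenerates active glucocorticoid in cells and was also chosen after its values were seen, had between 0 and 8 counts in a library and did not pass the filter.

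In the thyroid hormone list 3 of 16 tested genes had positive and 13 negative estimates (median -0.13, and negative under all 21 other settings, with -0.00308 in batch 1 alone). Hr, a corepressor that thyroid hormone induces in brain, had a mean of 13.5 ± 1.25 CPM under PBS against 11.02 ± 0.928 CPM under DOX, with a log2 fold change of -0.29 ± 0.14 (SE; edgeR, unadjusted p = 0.0688), or -0.18 with DOX replicate 1 counted as PBS. The calcium pump gene Atp2a2 had -0.38 ± 0.22, with a difference of 0.06 in batch 1 and -0.65 in batch 2. The corepressor gene Ncor1 stood at 126 ± 1.91 and 116 ± 6.62 CPM. In the estrogen list 10 of 17 had positive estimates (median 0.04), a median whose sign turned in 8 of 21 other settings (-0.25 in batch 1 alone, with 5 of 17 positive). The list of nuclear receptor partners and cofactors had 13 of 29 (median -0.03), and 18 of 29 in batch 1 alone (median 0.13). The coactivator gene Ncoa1, a member of both, had -0.34 ± 0.16.

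The growth hormone list had 8 of 20 genes with positive estimates (median -0.06, with the sign turned in 5 of 21 other settings, up to 0.07). Both STAT5 genes, which carry the signal of Ghr to the nucleus, had negative estimates. Stat5a had a mean of 13.5 ± 1.24 CPM (SD, n = 3) under PBS against 10.3 ± 1.09 CPM (SD, n = 5) under DOX, with a log2 fold change of -0.38 ± 0.15 (SE; edgeR, unadjusted p = 0.0295), and Stat5b had -0.31 ± 0.14 (unadjusted p = 0.0547). Within batches Stat5a differed by -0.33 and -0.42, and Stat5b by -0.46 and -0.24. With DOX replicate 1 counted as PBS, Stat5a had -0.30, Stat5b -0.10 and the phosphatase gene Ptpn1 -0.14. With all libraries as titled, Ptpn1 had -0.28 ± 0.13, and Ptpn11, which encodes the phosphatase SHP2, -0.23 ± 0.12. In the insulin list, 8 of 32 tested genes had positive and 24 negative estimates (median -0.09), led by the receptor phosphatase gene Ptprf at -0.45 ± 0.16 (unadjusted p = 0.0219; -0.23 with DOX replicate 1 counted as PBS), followed by Ptpn1 and by Slc2a4, a glucose transporter gene, at -0.37 ± 0.23. Slc2a4 differed by 0.01 in batch 1 and by -0.60 in batch 2. In batch 1 alone 20 of the 32 genes of the list were positive (median 0.07). With plain library totals 14 of the 32 were positive, and the median of all genes moved from 0.02 to 0.11.

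**Figure D4:**
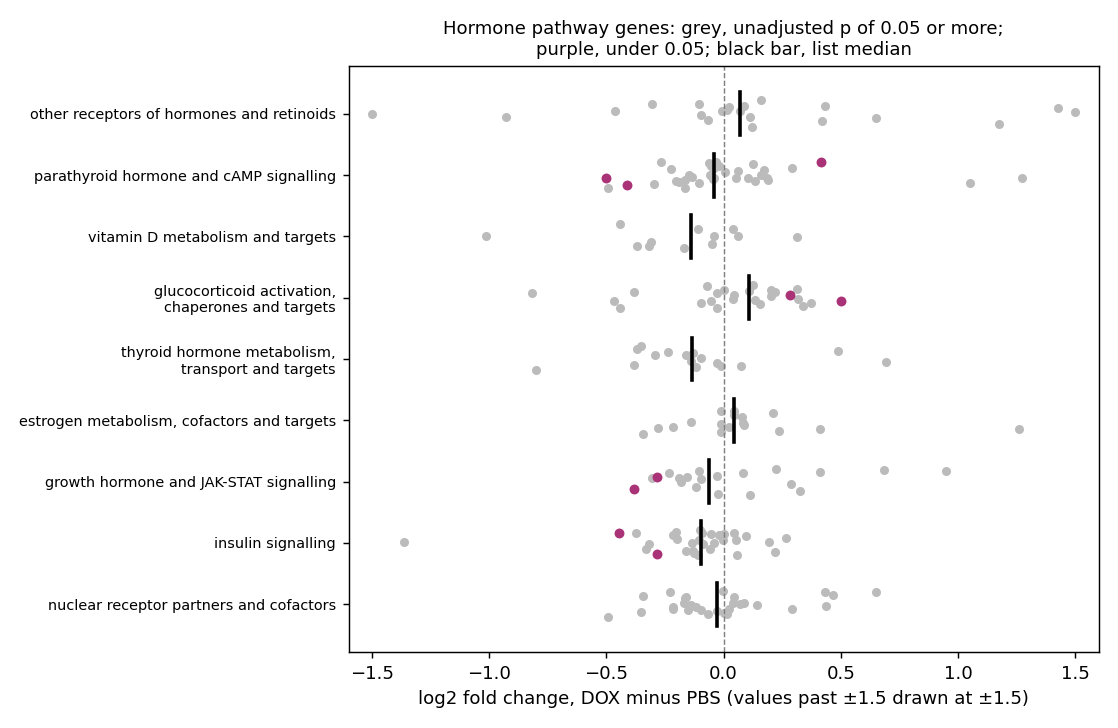
Log2 fold change of DOX over PBS (horizontal axis) for the tested genes of 9 hormone pathway lists (rows), with list medians as black bars, purple points for an unadjusted p under 0.05 in edgeR, and 2 points past 1.5 drawn at the edge. Medians lie between -0.14 (vitamin D) and 0.11 (glucocorticoid), close to the 0.02 of all genes.

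Among other hormone and retinoid receptors, 13 of 21 tested genes had positive estimates, 0 had an unadjusted p under 0.05 in edgeR, and the median was 0.07. The 3 of smallest p were Rxrg, with 4.46 ± 2.15 CPM under PBS against 5.74 ± 1.57 CPM under DOX, and Oxtr and Lhcgr, whose mean stayed under 0.34 CPM in each group. Relatives of the members, chosen after their values were seen, had overlapping groups. The retinoic acid receptor Rarg stood at 51.1 ± 6.09 and 51.8 ± 6.50 CPM and Rxrb, another retinoid X receptor, at 33.5 ± 3.09 and 35.6 ± 5.76 CPM (SD, n = 3 and n = 5). The progesterone receptor Pgr and the prolactin receptor Prlr had totals of 30 and 52 counts over the 8 libraries and did not pass the filter.

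**Figure D5:**
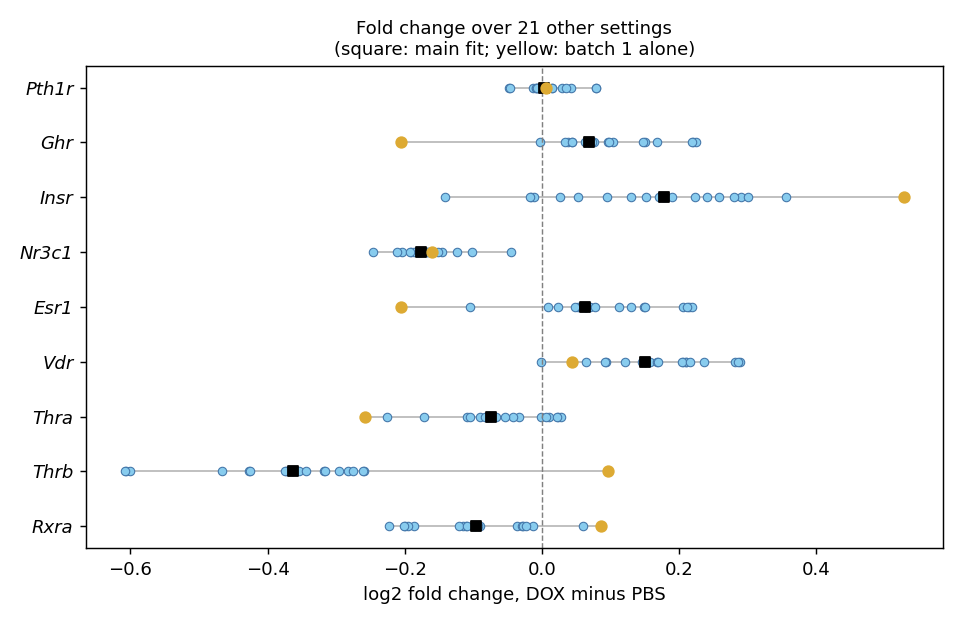
Log2 fold change of DOX over PBS (horizontal axis) of each receptor in the main fit (black square) and in 21 other settings (blue points, with batch 1 alone in yellow). Nr3c1 is the receptor whose points all lie on one side of 0, from -0.25 to -0.05, and Thrb is negative in each setting except batch 1 alone (0.10).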

How the data were processed

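RNA-seq libraries of GFP-sorted osteoblasts from mice given PBS (3 libraries) or doxorubicin (5 libraries) were compared. The authors deposited unnormalized read counts, 1 row for each of 21154 gene symbols, for all 8 libraries. The submitters' processing notes name featureCounts 2.0.1, SAMtools 1.17, STAR 2.7.9a and Trim Galore 0.6.6, and the build GRCm39. The sources used here do not give the strand setting, annotation or handling of multi-gene reads. No gene totalled under 10 counts. Library totals ran from 39419027 to 44299591 counts, and no member had fewer than 347 counts in a library.

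The counts were tested in R 4.3.3 with edgeR 4.0.16 (quasi-likelihood test, two-sided, TMM scaling, filterByExpr, batch and group as terms), with Benjamini-Hochberg adjustment over 15373 genes and a threshold of 0.05. CPM are counts relative to TMM-adjusted library size, and log2 CPM carry a prior count of 2. DESeq2 1.42.0 and limma 3.58.1 (voom with quality weights) were run as alternatives, with other scalings, filters, terms and left-out libraries. Groups follow the sample titles. The libraries are called biological replicates in their titles, but no label names the animal or says whether animals were pooled, so p-values measure the spread between these samples.

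Exon lengths and exon overlaps were taken from GENCODE M21 (GRCm38), and promoter sequences from RefSeq (GRCm38.p6), which is not the build of the counts. Of the 9 members, 6 matched the promoter table, which has no entry used here for Nr3c1, Thra and Insr. The members and the gene lists were chosen with earlier results of these data known. Named besides the members are the 3 genes of smallest unadjusted p in each pathway list, and for each member the 3 genes most alike in pattern among genes whose mean reached 5 log2 CPM. Some genes that this rule selects are not reported here. Genes named outside this rule were chosen after their values were seen. Python 3.11.15 and matplotlib 3.10.9 were used for plots.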

Additional observations from a re-analysis of the deposited data

How the results depend on the processing

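None of the 9 receptors passed adjustment under any of 21 other settings, the smallest adjusted p being 0.319 (Thrb in batch 2 alone, edgeR). Over all genes, 0 were called by edgeR, 26 by DESeq2 and 96 in batch 1 alone, which holds a single PBS library whose spread is taken from the DOX pair. Signs of small estimates turned. Pth1r had a log2 fold change of -0.0129 with limma-voom, -0.00254 without the filter, -0.00884 without the batch term, -0.00267 with the replicate block, -0.00493 in batch 2 alone and -0.00661 without both PBS replicate 1 and DOX replicate 1. In batch 1 alone Esr1 had -0.21, Ghr -0.21, Thrb 0.0967 and Rxra 0.0865. In batch 2 alone Thra had 0.0238 and Insr -0.0154, and without both PBS replicate 1 and DOX replicate 1 they had 0.0221 and -0.0174. When DOX replicate 1 was moved to PBS, Thra had 0.0101, Insr -0.14 and Rxra 0.0608, and with plain library totals Thra had 0.00561.

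Leaving out each library in turn gave ranges of -0.0482 to 0.0431 for Pth1r, -0.000555 to 0.29 for Vdr, -0.10 to 0.22 for Esr1, -0.17 to 0.0286 for Thra, -0.00206 to 0.23 for Ghr and -0.0114 to 0.36 for Insr, each with a change of sign. Nr3c1 (-0.25 to -0.12), Thrb (-0.60 to -0.26) and Rxra (-0.22 to -0.01) kept their sign there. The causes were not tested. Of the relations with the collagen share, 0 passed adjustment by Pearson's r with TMM and 5 with plain totals. Leaving out PBS replicate 1 and DOX replicate 1 together, and plain totals, were chosen after seeing the data. Same-numbered libraries of the groups had correlated deviations of 0.248, -0.054 and 0.245, the first and last being the highest of any PBS and DOX library. The numbers were still not taken to pair them, as PBS replicate 2 was in batch 2 and DOX replicate 2 in batch 1. The replicate block called 0 genes. The batch-by-treatment term could not be fitted without PBS replicate 1. In fits with batch as a term that leave out this library, batch 1 holds DOX libraries only. Their difference between groups then rests on batch 2, as in batch 2 alone. With 1 PBS library in batch 1 and 2 in batch 2, differences within a batch are poorly determined.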
